A study of Mus musculus with 12 samples.

Results

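This report describes 8 genes of sterol and lipid synthesis in mouse muscle stem cells: Srebf1, Srebf2, Insig1, Hmgcs1, Idi1, Fdft1, Sqle and Scd1. They were chosen by gene symbol from the 30154 genes of the deposited tables, and all 8 passed the filter on low counts and are among the 15890 genes tested. The cells were sorted by flow cytometry from 3 hind limb muscles (tibialis anterior, quadriceps and gastrocnemius) of C57BL/6J mice aged 2 to 3 months. Bulk RNA sequencing was done on wild-type cells and on cells of a Sestrin1,2 knockout, each before injury (day 0) and 7 and 21 days after it. There were 2 libraries per genotype and day, 12 libraries in 6 groups. Wild type and knockout share the strain, the age range, the muscles and the injury schedule. The kind of injury, the sex of the animals, the design of the knockout alleles, the tissues in which they act and any pooling of animals are not given in the sources used here. Nothing in the labels says whether 2 libraries of a group came from separate animals, so the p-values below measure the spread between these libraries, which may be technical.

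Cells make cholesterol from acetyl-CoA through the mevalonate pathway, and the membrane-bound transcription factors SREBP-1 and SREBP-2, encoded by Srebf1 and Srebf2, control it. When sterols in the endoplasmic reticulum are low, the escort protein SCAP carries the SREBPs to the Golgi, where they are cut and their active ends go to the nucleus. When sterols are high, INSIG proteins hold SCAP back. SREBP-2 is best known for the sterol genes and SREBP-1c for fatty acid synthesis. The active SREBPs are made by cleavage, so the mRNA levels given here do not measure their activity. Sestrins are stress-induced proteins that restrain mTORC1, a kinase complex known to promote SREBP processing. Muscle stem cells rest beside the muscle fibres and, after injury, divide and differentiate to repair them.

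Total estimated counts per library lay between 28396862 and 38950614. Sesn2, one of the 2 targeted genes, was at 27.6 and 30.7 TPM (a level scaled for transcript length and sequencing depth) in wild type and at 2.1 and 2.65 TPM in knockout at day 0. At day 7 its means were 19.8 TPM in wild type and 0.888 TPM in knockout (n = 2 each). Sesn1, the other, was at 31.4 and 30.6 TPM in wild type and still at 20.9 and 21.1 TPM in knockout at day 0, and its means at day 7 were 41.2 TPM in wild type and 12 TPM in knockout (n = 2 each). At day 21 Sesn2 contradicted 2 labels. The libraries labelled wild type held 3.37 TPM in replicate 1 and 34.1 TPM in replicate 2, and those labelled knockout 3.87 TPM in replicate 1 and 45.7 TPM in replicate 2. Sesn1 divided the same libraries, at 18.5 and 39.9 TPM under the wild-type label and 19.3 and 34.9 TPM under the knockout label. Any genotype difference at day 21 is therefore given by label alone, while values averaged over both genotypes take in all 4 day 21 libraries, though the fit and its errors still use the labelled groups. Without the 2 libraries that Sesn2 contradicts, 5 of the 8 genes were called between day 0 and day 21, where 41.2% of all genes were, and 8 between day 7 and day 21, where 51.1% were. All 8 muscle stem cell markers were detected in every group, with a summed level between 624 and 1588.2 TPM, and Pax7, the defining factor of these cells, was at 3.14 to 19.2 TPM. Markers of other cells were present as well. The 5 markers of fibro-adipogenic cells, the connective tissue progenitors of muscle, summed to between 5301.1 and 11438 TPM. Most of it was Dcn and Col1a1, while Pdgfra was at 3.45 to 21.3 TPM. These sums were the highest of the lists in every group but knockout at day 0. There they were at 5301.1 to 5321.1 TPM, and pericyte and smooth muscle markers at 7533.4 to 7549.6 TPM. The 4 of pericytes and smooth muscle summed to between 2097.3 and 7549.6 TPM, the 5 of Schwann cells, the glia of peripheral nerve, to between 275 and 2468.3 TPM, those of leukocytes to between 336 and 3513.2 TPM, and those of endothelial cells to between 23.3 and 85.6 TPM. Most of the leukocyte sum was Lyz2, at 320 to 3508.5 TPM. Ptprc reached at most 3.48 TPM, Csf1r 7.4 TPM and Cd68 18.9 TPM in any library. In bulk samples, fewer cells of a type and less RNA per cell cannot be told apart.

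The promoter sequences of 3 of the genes are shown because they carry letters that SREBPs are known to bind, and because these genes moved in the data below. They come from RefSeq promoters on build GRCm38.p6, 250 bases before to 50 after each gene start, in which 5 of the 8 genes (Srebf1, Srebf2, Insig1, Hmgcs1 and Idi1) were matched. All 3 windows are on the plus strand, upstream of the start, and are written 5′ to 3′ with the motif in capitals. The windows of Hmgcs1 (chr13:119690151-119690270) and Srebf2 (chr15:82147049-82147168) hold TCACCCCA, a match to TCACNCCA, the core of the classical sterol regulatory element. That of Insig1 (chr5:28071242-28071351) holds the E-box CACGTG. Neither TCACNCCA nor CACGTG was found in the promoter of Idi1 or at the 3 listed starts of Srebf1.
Hmgcs1: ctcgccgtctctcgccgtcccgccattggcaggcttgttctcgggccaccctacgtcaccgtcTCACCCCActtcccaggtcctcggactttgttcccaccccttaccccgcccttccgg
Srebf2: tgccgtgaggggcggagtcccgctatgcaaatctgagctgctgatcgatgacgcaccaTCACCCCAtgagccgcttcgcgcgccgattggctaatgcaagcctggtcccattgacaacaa
Insig1: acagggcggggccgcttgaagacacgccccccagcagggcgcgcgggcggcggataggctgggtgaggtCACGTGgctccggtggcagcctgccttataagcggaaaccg
The match begins 137 bases before the start in Hmgcs1, 162 in Srebf2 and 101 in Insig1, as offsets -137, -162 and -101. Searched on both strands, TCACNCCA occurred in 4.34% of 32544 promoters of the same length and CACGTG in 7.17%. The longer TCACNCCAC, in 1.24% of promoters, was found in Hmgcs1 and not in Srebf2. The CCAAT box, bound by the SREBP partner NF-Y, occurred in 37.4% of promoters. It was found in the promoters of Hmgcs1 (4 matches), Idi1 (2), Insig1 (1) and Srebf2 (1) and at 2 of the 3 listed starts of Srebf1. These motifs were chosen after the expression data had been seen, and a match is a description of letters, not a measured binding site.

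Per transcript length, the order of the 8 genes by mean level in wild type at day 0 was Sqle, Idi1, Srebf1, Hmgcs1, Scd1, Insig1, Fdft1 and Srebf2, from 72.5 ± 3.45 TPM (SD, n = 2) for Sqle to 11.7 ± 0.57 TPM for Srebf2. Sqle and Idi1 overlapped between libraries, and every other neighbouring pair in that order was separated. At day 7 the order changed. Srebf1 led in both genotypes, at 50.4 ± 6.53 TPM in wild type and 59.8 ± 15.2 TPM in knockout, and Fdft1 came last, at 5.41 ± 0.526 and 6.63 ± 1.37 TPM. At day 21 Sqle and Srebf1 led under both labels and overlapped, and most neighbours in the order overlapped. The plot of levels by library shows these patterns.

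**Figure D1:**
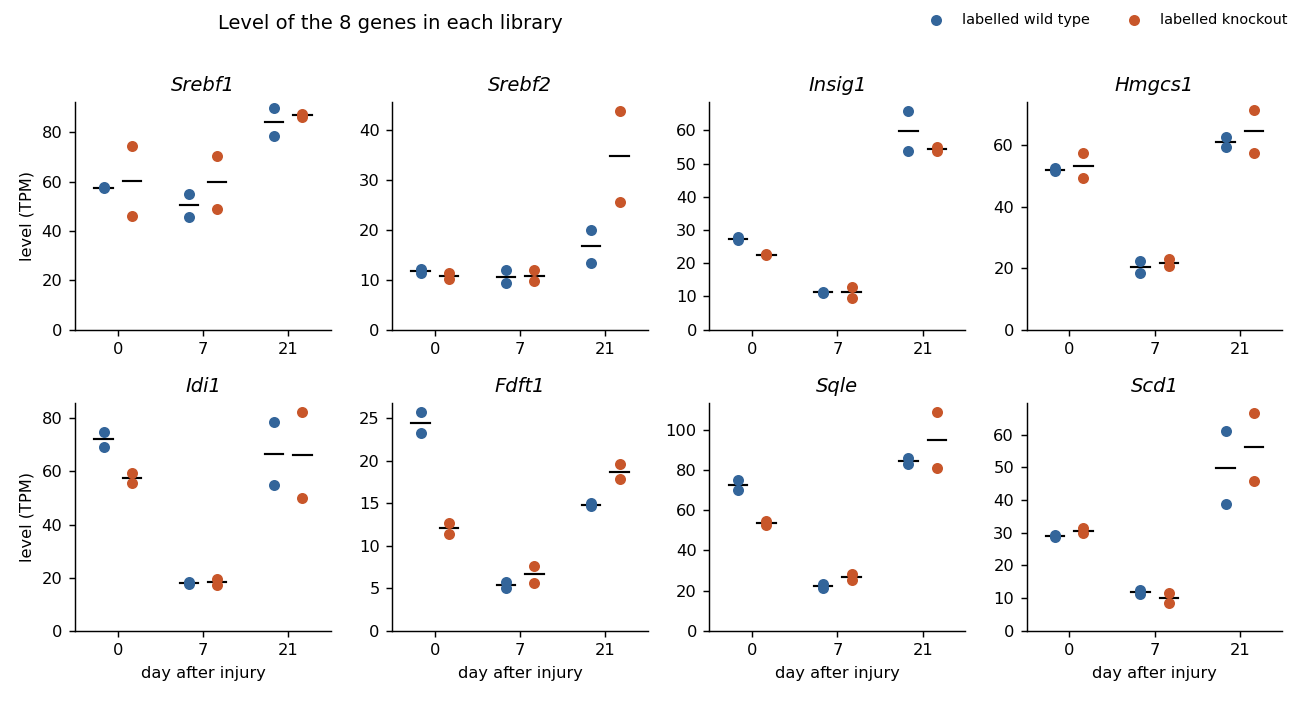
Level of each gene in TPM (vertical axes, from 0) in the 12 libraries by day after injury; points are libraries, colours the labelled genotype and black bars the mean of 2 libraries. Hmgcs1, Sqle, Idi1, Insig1, Fdft1 and Scd1 are lower in all 4 day 7 libraries than in any day 0 library, Fdft1 is highest in wild type at day 0, and Srebf2 is highest in the 2 day 21 libraries labelled knockout, at 25.6 and 43.8 TPM.

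Between day 0 and day 7 the enzymes and Insig1 fell in both genotypes. In wild type 7 of the 8 genes fell (adjusted p under 0.05, edgeR's quasi-likelihood test with Benjamini-Hochberg adjustment over all genes tested), where 21.2% of all genes tested were called lower and 47.0% were called in either direction. In knockout 6 of 8 fell, where 22.2% of all genes were called lower and 46.9% in either direction. The largest falls were those of Fdft1 (5.3-fold) and Idi1 (4.82-fold) in wild type, and of Scd1 (3.32-fold) and Idi1 (3.26-fold) in knockout. On the log2 scale each pair lay within a standard error of each other. Of the transcription factor genes, Srebf2 was not called in either genotype, and Srebf1 fell 1.37-fold in wild type and was not called in knockout.

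Positions below are those of the protein-coding genes in GENCODE M21, build GRCm38. Hmgcs1 (ENSMUSG00000093930) lies on chromosome 13 at 119690379 to 119708260, plus strand. Hmgcs1 encodes HMG-CoA synthase, which makes the HMG-CoA that feeds the mevalonate pathway. It was at 51.6 and 52.7 TPM in wild type and 49.2 and 57.6 TPM in knockout at day 0, and at 22.5 and 18.4 TPM and 20.8 and 22.9 TPM at day 7. Every day 7 library lay below every day 0 library, and the genotypes overlapped on both days. On the log2 scale Hmgcs1 fell by 1.58 in wild type (SE 0.133, edgeR adjusted p 1.02e-05) and fell by 1.42 in knockout (SE 0.132, edgeR adjusted p 1.48e-05).

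Idi1 (ENSMUSG00000058258) lies on chromosome 13 at 8885501 to 8892451, plus strand. Idi1 encodes the isomerase that supplies dimethylallyl diphosphate, a building block of isoprenoids. Its level was 74.7 and 69.3 TPM in wild type and 59.4 and 55.6 TPM in knockout at day 0, then 18.5 and 17.6 TPM and 17.2 and 19.6 TPM at day 7. The genotypes were apart at day 0 and overlapped at day 7, and all day 7 libraries were below all day 0 libraries. On the log2 scale it fell by 2.27 in wild type (SE 0.191, edgeR adjusted p 1.15e-05) and fell by 1.71 in knockout (SE 0.188, edgeR adjusted p 5.02e-05). The annotated gene Gm13502 shares 684 bases with the longest Idi1 transcript at 100% identity, and it was listed at 5.76 to 57.1 TPM, so the division of reads between the 2 genes is uncertain. Gm13502 fell too, by 2.67 in wild type (SE 0.219, edgeR adjusted p 8.78e-06) and by 2.06 in knockout (SE 0.211, edgeR adjusted p 2.83e-05). At day 0 it was at 35.1 and 28.1 TPM in wild type and 34.5 and 42.1 TPM in knockout. That genotype difference was 0.23 (SE 0.198, edgeR adjusted p 0.433), where that of Idi1 was -0.42. The part of read division in the Idi1 values was not tested.

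Fdft1 (ENSMUSG00000021273) lies on chromosome 14 at 63145150 to 63179578, minus strand. Fdft1 encodes squalene synthase, the first enzyme committed to sterols. It was at 23.2 and 25.7 TPM in wild type and 12.7 and 11.4 TPM in knockout at day 0, and at 5.03 and 5.78 TPM and 7.6 and 5.67 TPM at day 7. Knockout libraries were about level with each other and well below wild type at day 0, whereas the genotypes overlapped at day 7. Fdft1 fell by 2.41 in wild type (SE 0.155, edgeR adjusted p 2.28e-06) and fell by 0.99 in knockout (SE 0.151, edgeR adjusted p 0.000392) on the log2 scale.

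Sqle (ENSMUSG00000022351) lies on chromosome 15 at 59315077 to 59331192, plus strand. Sqle encodes squalene epoxidase, which oxidises squalene in the step after Fdft1. Wild-type libraries held 70.1 and 75.0 TPM and knockout libraries 52.8 and 54.7 TPM at day 0. At day 7 they held 23.5 and 21.4 TPM and 28.2 and 25.5 TPM. Wild type and knockout were apart on both days, but their order was reversed: knockout was lower before injury and higher at day 7. On the log2 scale Sqle fell by 1.92 in wild type (SE 0.122, edgeR adjusted p 2.08e-06) and fell by 1.12 in knockout (SE 0.119, edgeR adjusted p 3.64e-05).

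Insig1 (ENSMUSG00000045294) lies on chromosome 5 at 28071363 to 28078662, plus strand. Insig1, the sterol-dependent brake on SCAP and itself an SREBP target, followed the enzymes. It was at 26.9 and 27.8 TPM in wild type and 22.7 and 22.5 TPM in knockout at day 0, and at 11.1 and 11.4 TPM and 9.68 and 12.8 TPM at day 7. All day 7 libraries were below all day 0 libraries. It fell by 1.504 in wild type (SE 0.13, edgeR adjusted p 1.21e-05) and fell by 1.14 in knockout (SE 0.13, edgeR adjusted p 5.64e-05) on the log2 scale.

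Scd1 (ENSMUSG00000037071) lies on chromosome 19 at 44394455 to 44407879, minus strand. Scd1 encodes a desaturase that turns saturated into monounsaturated fatty acids and is a target of SREBP-1c and of the sterol-sensing receptor LXR. It was at 29.2 and 28.6 TPM in wild type and 29.9 and 31.3 TPM in knockout at day 0, and at 11.3 and 12.4 TPM and 11.5 and 8.65 TPM at day 7. The genotypes did not overlap at day 0 but stood within 3 TPM of each other, and they overlapped at day 7. On the log2 scale it fell by 1.52 in wild type (SE 0.195, edgeR adjusted p 0.000167) and fell by 1.73 in knockout (SE 0.197, edgeR adjusted p 6.32e-05). Its paralog Scd3 shares 1053 aligned bases with Scd1 at 91.4% identity, and it was listed at 1.76 TPM or less in every library.

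Srebf2 (ENSMUSG00000022463) lies on chromosome 15 at 82147181 to 82205379, plus strand. Srebf2 was at 11.3 and 12.1 TPM in wild type and 11.4 and 10.1 TPM in knockout at day 0, and at 12 and 9.27 TPM and 11.9 and 9.68 TPM at day 7. All 8 of these libraries lay within 3 TPM of each other. The log2 change was -0.37 in wild type (SE 0.23, edgeR adjusted p 0.217) and -0.13 in knockout (SE 0.23, edgeR adjusted p 0.689). The wild-type change was called when the day 21 libraries were left out of the fit, at -0.41 with an edgeR adjusted p of 0.0333, where 54.0% of all genes were called.

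Srebf1 (ENSMUSG00000020538) lies on chromosome 11 at 60199089 to 60222581, minus strand. Srebf1 differed between knockout replicates. Its level was 57.7 and 57.4 TPM in wild type and 46.2 and 74.6 TPM in knockout at day 0, and 45.8 and 55.0 TPM and 70.6 and 49.0 TPM at day 7. The high value in knockout replicate 2 at day 0 came with a relative transcript length (estimated count per TPM, scaled to the library median) of 1.1, where the other 11 libraries lay between 1.35 and 1.59. By CPM (counts relative to the scaled library size), which do not use that length, the same library was at 145 CPM and wild type at 158 and 165 CPM. On the log2 scale of the count fit Srebf1 fell by 0.46 in wild type (SE 0.126, edgeR adjusted p 0.0129) and was at 0.006 in knockout (SE 0.126, edgeR adjusted p 0.979). The wild-type call was lost in 7 of 22 alternative settings, with adjusted p up to 0.608, among them the 3 fits on log2 TPM, where the change was -0.195 to -0.199, and the fit on the authors' batch-corrected log2 values, where it was -0.44. The fit of log2(TPM + 1) also moved the median change of all genes in this comparison, from 0.057 to 0.244. The opposite-strand gene Rai1, which overlaps Srebf1, was listed at 3.69 to 8.19 TPM.

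**Figure D2:**
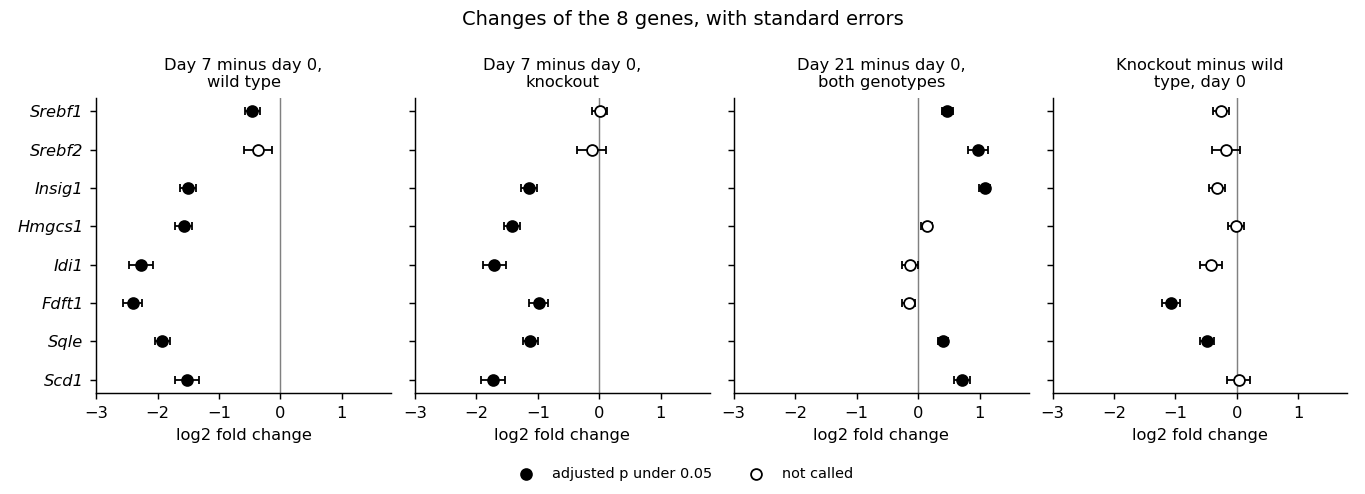
Log2 fold changes of the 8 genes (horizontal axes) in 4 comparisons, with bars of 1 standard error; filled points had an adjusted p under 0.05 and open points did not. Hmgcs1, Idi1, Fdft1, Sqle, Insig1 and Scd1 lie left of 0 at day 7 in both genotypes, and Fdft1 is 1.07 lower in knockout before injury.

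Before injury, Fdft1 and Sqle were lower in knockout than in wild type. These were 2 of the 8 genes called, and none was called higher, where 12.6% of all genes tested were called lower and 27.4% in either direction. Fdft1 was 2.1-fold lower (log2 change -1.07, SE 0.148, edgeR adjusted p 0.00115), and Sqle 1.4-fold lower (-0.49, SE 0.118, edgeR adjusted p 0.0131). Insig1 stood at -0.33 (SE 0.127, edgeR adjusted p 0.0788) and Idi1 at -0.42 (SE 0.182, edgeR adjusted p 0.116), and neither was called. Idi1 was called when the day 21 libraries were left out of the fit (-0.43, edgeR adjusted p 0.00987), as 1 of 3 genes, where 38.9% of all genes were. It was also called without knockout replicate 1 (edgeR adjusted p 0.0433) or 2 (0.0434) of day 21, and Insig1 without knockout replicate 1 (0.0273) or 2 (0.0276) of day 7. Hmgcs1 and Scd1 were at -0.017 (SE 0.129) and 0.027 (SE 0.19). The Fdft1 call held in all 22 alternatives, with adjusted p between 2.73e-09 and 0.0177. The Sqle call was lost without knockout replicate 1 (adjusted p 0.0845), knockout replicate 2 (0.0684) or wild-type replicate 2 (0.0958) of day 0, and in the limma fit of log2(TPM + 1) with no filter (0.0648).

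The fall after injury was smaller in knockout for Fdft1 and Sqle. Tested as an interaction, the change of Fdft1 from day 0 to day 7 was 1.42 log2 units less negative in knockout than in wild type (SE 0.212, edgeR adjusted p 0.00439), and that of Sqle 0.80 units (SE 0.167, edgeR adjusted p 0.0156). Of all genes tested, 6.08% had an interaction called higher and 13.5% one called in either direction. For the other 6 genes the interaction was not called. The values were 0.56 for Idi1 (SE 0.26), 0.46 for Srebf1 (SE 0.178), 0.36 for Insig1 (SE 0.181), 0.24 for Srebf2 (SE 0.325), 0.16 for Hmgcs1 (SE 0.184) and -0.22 for Scd1 (SE 0.271). This interaction uses the same day 0 libraries as the comparison of genotypes before injury, so the 2 results are not independent. The Sqle interaction missed the threshold in 7 of 22 alternatives, with adjusted p up to 0.0738 (limma), and that of Fdft1 held in all 22. Over the 22 the value for Sqle lay between 0.676 and 0.883. With the day 21 libraries left out of the fit, 3 of the 8 genes were called, Idi1 being the third, at 0.58 with an edgeR adjusted p of 0.0217, where 24.8% of all genes were. The Insig1 interaction was called without knockout replicate 1 of day 7 (0.56, edgeR adjusted p 0.0417), and that of Srebf1 without knockout replicate 2 of day 7 (0.64, edgeR adjusted p 0.0399).

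Several other measures differed between genotypes at day 0, where 12.6% of all genes tested were called lower and 27.4% in either direction. The 6 keratinocyte markers (skin epithelium) summed to 164 to 174 TPM in wild type and 1.6 to 1.86 TPM in knockout, where Krt5, Krt14, Krt1 and Krt15 were at 0 in both libraries. Of the 6, 5 were tested, and all of those were called lower. The 9 sebaceous gland markers, from skin glands that make lipid and squalene, summed to 27.7 to 30.6 TPM in wild type and 15.4 to 15.6 TPM in knockout, with 5 of the 8 tested called lower. The 4 red blood cell markers summed to 2810.2 to 2825.4 TPM in wild type and 696 to 723 TPM in knockout, with all 4 called lower. Of the 4 pericyte and smooth muscle markers 3 were called higher in knockout. They summed to 7533.4 to 7549.6 TPM against 4950.1 to 4958.7 TPM, most of it Acta2, while Rgs5 was at 22.9 and 23.5 TPM in knockout against 35.1 and 30.6 TPM in wild type. Of the 8 muscle stem cell markers, 6 were called lower in knockout and none higher. Among the other lists, 2 of 5 muscle fibre and 1 of 5 fibro-adipogenic markers were called lower, 2 of 5 Schwann cell and 1 of 4 endothelial markers higher, and no leukocyte or adipocyte marker was called. Of the 6 circadian clock genes 3 were called lower and 1 higher. Nr1d1 was at 160 and 165 TPM in wild type and 21.1 and 21.3 TPM in knockout, and Arntl at 11.5 and 10.4 TPM in wild type and 27.7 and 19 TPM in knockout. The part of these differences in the Fdft1 and Sqle results was not tested.

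Fdft1 overlaps Ctsb, a lysosomal protease gene on the opposite strand, by 774 bases of its longest transcript, and whether the counting used strand is not given in the sources used here. Ctsb was at 198 and 199 TPM in wild type and 185 and 162 TPM in knockout at day 0, and at 253 and 262 TPM and 302 and 291 TPM at day 7. From day 0 to day 7 its log2 change was 0.15 in wild type (edgeR adjusted p 0.238) and 0.65 in knockout (edgeR adjusted p 0.000383). Its own difference at day 0 was -0.25 (SE 0.0979, edgeR adjusted p 0.0832), its interaction 0.50 (SE 0.138, edgeR adjusted p 0.0408). The part of Ctsb reads in the Fdft1 values was not tested. The transcript Gm6781, 97.4% identical to Fdft1 over 1249 bases, was listed at 0.3 to 1.45 TPM.

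At day 7 none of the 8 genes differed between genotypes by the edgeR test (0 called of 8, and 1.76% of all genes called). At an unadjusted p under 0.05, which 14.3% of all genes reached, there were 2, Sqle at 0.31 (SE 0.119, unadjusted edgeR p 0.0252) and Fdft1 at 0.34 (SE 0.152, unadjusted edgeR p 0.0461), and DESeq2 called 0. At day 21, by label, 0 of 8 were called, where 0.0126% of all genes were. Srebf2 was the 1 gene of the 8 with an unadjusted p under 0.05, which 14.2% of all genes reached. DESeq2 called it as 1 of the 8, where it called 2.96% of all genes. Its libraries labelled wild type held 13.4 and 20.0 TPM and those labelled knockout 25.6 and 43.8 TPM, so the labelled groups did not overlap (log2 change 1.01, SE 0.23, edgeR adjusted p 0.15). By Sesn2, however, the low libraries are wild-type replicate 1 and knockout replicate 1, with Srebf2 at 13.4 and 25.6 TPM, and the high ones held 20.0 and 43.8 TPM. The adjusted p of Srebf2 ranged from 0.00188 to 0.419 over the alternatives, and without the 2 libraries that Sesn2 contradicts the change was 0.44. Without the library labelled knockout replicate 1 it was called, at 1.30 with an edgeR adjusted p of 0.0241, and without knockout replicate 2 it was 0.64, not called.

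At day 21 all 8 genes had risen again from day 7, and 5 stood above their day 0 level. Averaged over genotypes, 8 of 8 rose between day 7 and day 21, where 28.4% of all genes tested were called higher and 56.8% in either direction. Against day 0, Insig1, Srebf2, Scd1, Srebf1 and Sqle were higher, where 25.0% of all genes were called higher and 45.9% in either direction. Hmgcs1, Idi1 and Fdft1 were not called against day 0. Insig1 showed the largest rise of the 8 from day 7, 5.31-fold, and ended 2.12-fold above day 0.

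The regulators were among the genes that passed their day 0 level. Insig1 was at 53.9 and 65.7 TPM under the wild-type label and 53.8 and 55.0 TPM under the knockout label, all above its highest level of 27.8 TPM before injury. Its log2 change from day 0 was 1.09 (SE 0.0899, edgeR adjusted p 1.2e-05). Srebf2, at 13.4 to 43.8 TPM, changed by 0.98 (SE 0.163, edgeR adjusted p 0.000905), and all 4 libraries were above the highest day 0 library at 12.1 TPM. Srebf1 was at 78.4 and 90.1 TPM and 87.6 and 86.3 TPM, also above every earlier library, with a change of 0.475 (SE 0.0891, edgeR adjusted p 0.00166).

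Among the enzymes, Sqle was at 83.3 and 85.9 TPM under the wild-type label and 81.0 and 109 TPM under the knockout label. Its log2 change from day 0 was 0.41 (SE 0.083, edgeR adjusted p 0.00258). Scd1 was at 38.9 and 61.0 TPM and 45.7 and 66.7 TPM, and every library was above the 31.3 TPM that was its highest level before injury. It changed by 0.71 (SE 0.135, edgeR adjusted p 0.00184).

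The remaining 3 enzymes were not called against day 0. Hmgcs1 was at 59.3 and 62.6 TPM and 57.5 and 71.4 TPM, a log2 change from day 0 of 0.14 (SE 0.0914, edgeR adjusted p 0.248). Idi1 was at 54.8 and 78.6 TPM and 49.8 and 82.4 TPM, with replicate 1 the lower under both labels, a change of -0.135 (SE 0.129, edgeR adjusted p 0.425). Fdft1 was at 15.0 and 14.6 TPM and 17.8 and 19.6 TPM, below both wild-type libraries of day 0 (23.2 and 25.7 TPM) and above both knockout ones (12.7 and 11.4 TPM), a change of -0.15 (SE 0.104, edgeR adjusted p 0.257). From day 7 these 3 rose by 1.64 (SE 0.0941), 1.85 (SE 0.134) and 1.54 (SE 0.108) log2 units. All 13 rises at day 21 that were called held in each of the 22 alternatives run for them.

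Markers of the cells themselves and of other cells moved over the days as well. From day 0 to day 7, all 5 Schwann cell markers fell in both genotypes, from 1897.8 to 2001.2 TPM summed in wild type to 275 to 290 TPM, and from 2398.6 to 2468.3 TPM in knockout to 316 to 422 TPM. Of the 4 pericyte and smooth muscle markers 3 fell and 1 rose in each genotype. All 5 muscle fibre markers rose, in wild type from 67.9 to 77.9 TPM summed to 1546.1 to 2320.3 TPM. Of the 5 fibro-adipogenic markers 2 rose and 1 fell in each genotype, and of the 4 leukocyte markers tested 3 rose and 1 fell in each. Of the 8 muscle stem cell markers 2 rose and 2 fell in wild type, and 4 rose and 2 fell in knockout. In wild type 4 of the 5 keratinocyte markers tested, 4 of the 8 sebaceous gland markers tested and all 4 red blood cell markers fell. In knockout 1 keratinocyte marker rose and none fell, 2 sebaceous gland markers rose and 1 fell, and 1 red blood cell marker fell and none rose. Of the 6 clock genes 5 fell in wild type (median -1.09), 1 fell and 1 rose in knockout, and 3 were called higher in the interaction and none lower.

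From day 7 to day 21, averaged over genotypes, all 5 Schwann cell, all 4 red blood cell, 4 of the 5 keratinocyte and 5 of the 6 clock genes rose and none of these lists had a gene that fell. Pericyte and smooth muscle markers gave 3 that rose and 1 that fell, muscle stem cell markers 5 and 2, fibro-adipogenic markers 2 and 2, sebaceous gland markers 2 and 2, and leukocyte markers 1 and 3. Muscle fibre markers gave none that rose and 4 of 5 that fell. Of all genes tested, 28.4% were called higher from day 7 to day 21 and 56.8% in either direction. Against day 0 these shares were 25.0% and 45.9%. At day 21 against day 0, all 8 muscle stem cell markers (median 0.871), all 5 muscle fibre markers and 4 of the 5 keratinocyte markers were higher and none lower. Fibro-adipogenic markers gave 3 higher and 1 lower, leukocyte markers 2 higher and 1 lower, and clock genes 2 higher and none lower. All 5 Schwann cell markers were lower, at 726 to 1125.6 TPM summed, as were 2 of the 4 pericyte and smooth muscle and 2 of the 8 sebaceous gland markers, with none of these higher. Adipocyte markers, of a cell type rich in Scd1, summed to at most 1.1 TPM at days 0 and 7. At day 21 they reached 6.25 TPM in the libraries labelled wild type and 25.7 TPM in those labelled knockout. The part of all these lists in the sterol results was not tested.

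**Figure D3:**
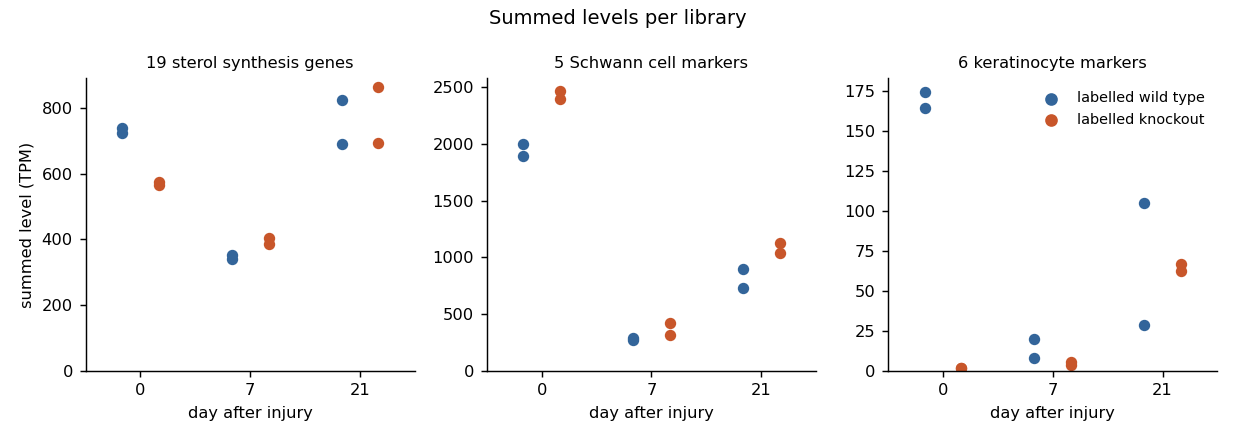
Summed level in TPM (vertical axes, from 0) of 19 sterol synthesis genes, 5 Schwann cell markers and 6 keratinocyte markers in each of the 12 libraries by day; points are libraries and colours the labelled genotype. At day 21 the sterol sum of 691 to 863 TPM spans that of wild type at day 0, 722 to 739 TPM, the Schwann sum is 726 to 1125.6 TPM, and keratinocyte markers are at 1.6 to 1.86 TPM in knockout at day 0.

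The wider sterol pathway was read from a list of 19 enzymes between acetyl-CoA and cholesterol, of which 4 (Hmgcs1, Idi1, Fdft1 and Sqle) are among the 8 genes. From day 0 to day 7 in wild type, 16 of 19 fell and none rose, where 21.2% of all genes were called lower, with a median log2 change of -0.81 against 0.057 over all genes. The 15 others gave 12 that fell and a median of -0.78. Sc5d, which acts late in the pathway, fell by 1.62 (SE 0.118, edgeR adjusted p 4.49e-06), and Msmo1, a methyl sterol oxidase, fell by 2.21 (SE 0.175, edgeR adjusted p 7.08e-06). In knockout 9 of 19 fell and 1 rose, where 22.2% of all genes were called lower, with a median of -0.42 against 0.028 over all genes. Of the 15 others in knockout, 5 fell and 1 rose, with a median of -0.305. The gene that rose was Dhcr7, a reductase late in the pathway, named after its values were seen, at 0.62 (SE 0.175, edgeR adjusted p 0.0146).

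Before injury 10 of the 19 were lower in knockout and none was higher, where 12.6% of all genes were called lower, with a median of -0.42 against 0.002 over all genes. The limma fit of log2(TPM + 1) called 6 of the 19 lower, where it called 1333 of all 13953 genes lower. Beside Fdft1 and Sqle, Sc5d fell by 0.67 (SE 0.115, edgeR adjusted p 0.0028) and Ebp, a sterol isomerase, fell by 0.49 (SE 0.101, edgeR adjusted p 0.00635) in knockout relative to wild type. Summed, the 19 genes were at 722 to 739 TPM in wild type and 565 to 574 TPM in knockout. In the interaction all 19 values were above 0, with a median of 0.56 against 0.009 over all genes. Of the 19, 7 were called higher, where 6.08% of all genes were. With the day 21 libraries left out of the fit 11 were called higher, where 2012 of all 15672 genes were. The limma fit of log2(TPM + 1) called 3 higher, where it called 510 of all 13953 genes higher. The genes called included Fdps, which makes farnesyl diphosphate just before Fdft1, at 1.08 (SE 0.183, edgeR adjusted p 0.0069). Fdps held 75.1 and 83.9 TPM in wild type and 55.7 and 52.2 TPM in knockout at day 0, and 40.6 and 36.8 TPM and 53.6 and 50.4 TPM at day 7, and in knockout its change was not called. From day 7 to day 21, averaged over genotypes, 15 of 19 rose and none fell, where 28.4% of all genes were called higher, with a median of 1.203 against 0.008 over all genes.

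**Figure D4:**
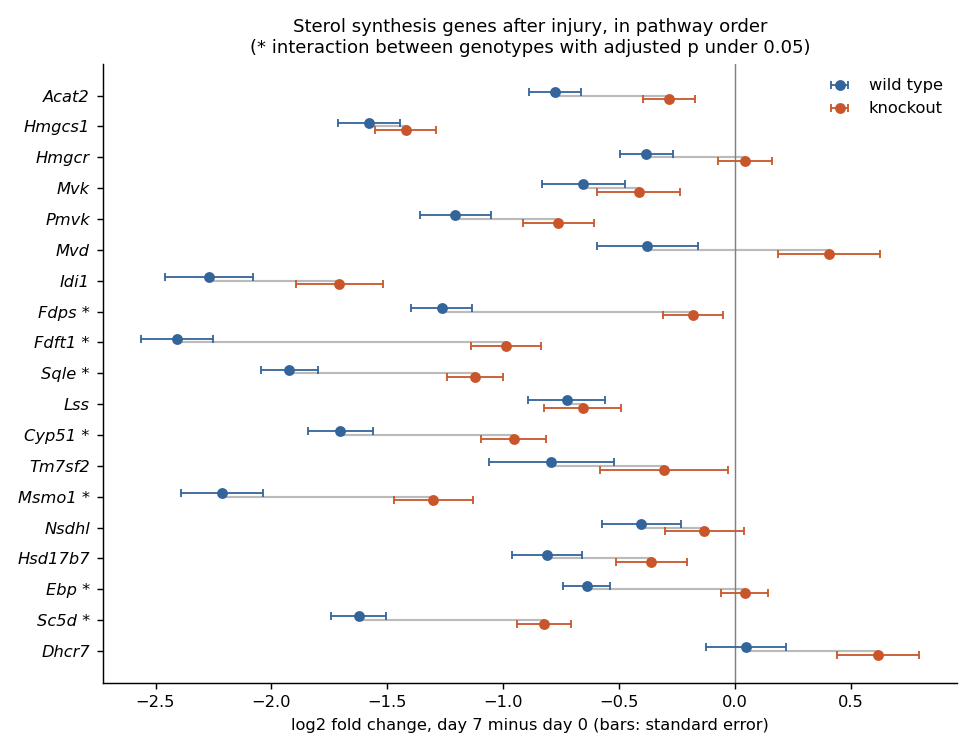
Log2 fold change from day 0 to day 7 (horizontal axis, bars of 1 standard error) of the 19 sterol synthesis genes in pathway order, in wild type and knockout; a star marks an interaction with adjusted p under 0.05. In wild type 16 of 19 fell and in knockout 9 of 19, and Fdps, Fdft1, Sqle, Cyp51, Msmo1, Ebp and Sc5d have called interactions, all above 0.

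Genes that control SREBPs were called in both directions at day 7 in wild type. Of the 7 on that list, where 47.0% of all genes were called in either direction, Scap, Mbtps1 and Mbtps2 rose and Insig1 and Srebf1 fell from day 0 to day 7 in wild type, and the list's median was -0.014. In knockout Insig1 fell, the other 6 were not called and none of the 7 rose, where 22.2% of all genes were called lower and 46.9% in either direction. Scap, the escort protein, was at 13.1 and 14.6 TPM in wild type and 19.4 and 20.9 TPM in knockout at day 0. Its day 7 levels were 24.4 and 25.1 TPM in wild type and 24.6 and 23.5 TPM in knockout. It was higher in knockout before injury (0.49, SE 0.129, edgeR adjusted p 0.0197), the opposite direction to Fdft1 and Sqle. Mbtps1, a protease that cuts SREBPs, was also higher then (0.43, SE 0.102, edgeR adjusted p 0.0119). At day 21, 5 of the 7 were above day 0 and none below, where 25.0% of all genes were called higher.

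Of the 14 genes of fatty acid synthesis on the list, which includes Scd1, 6 fell, 1 rose and 7 were not called from day 0 to day 7 in wild type, where 21.2% of all genes were called lower. In knockout 8 fell and 1 rose, where 22.2% of all genes were called lower. Before injury 1 was higher and 2 were lower in knockout, where 27.4% of all genes were called in either direction, and the list's median was 0.27. Acss2, which makes acetyl-CoA from acetate, fell by 1.37 (SE 0.146, edgeR adjusted p 4.58e-05) in wild type and fell by 1.27 (SE 0.147, edgeR adjusted p 6.24e-05) in knockout. From day 7 to day 21, 12 of the 14 rose and 1 fell, where 28.4% of all genes were called higher. Scd2, a paralog of Scd1, was at 83.6 to 86.9 TPM in wild type and 102 to 105 TPM in knockout at day 0, and rose by 1.46 from day 7 to day 21 (SE 0.0994, edgeR adjusted p 1.55e-06). Gpam, the acyltransferase that begins glycerolipid synthesis, was at 0.459 and 0.669 TPM in wild type and 4.27 and 4.47 TPM in knockout at day 0, and at 4.02 and 4.13 TPM and 2.46 and 1.08 TPM at day 7. It rose in wild type and fell in knockout, and the interaction was -4.05 (SE 0.46, edgeR adjusted p 0.00162).

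Sterol uptake and efflux genes were mixed. Of 6 uptake and transport genes, 2 fell from day 0 to day 7 in wild type and none rose, where 21.2% of all genes were called lower. In knockout 3 fell and 1 rose, where 22.2% of all genes were called lower. Stard4, a carrier of cholesterol inside the cell, fell by 2.21 in wild type (SE 0.206, edgeR adjusted p 1.99e-05), from a mean of 18.8 to 3.92 TPM. In knockout its mean went from 8.44 to 5.52 TPM, and the interaction was 1.31. It was also lower in knockout before injury, at 8.35 and 8.52 TPM against 19.2 and 18.4 TPM (-0.99, SE 0.198, edgeR adjusted p 0.00558), the same direction as Fdft1 and Sqle. Of the 7 LXR and efflux genes, 1 rose and 3 fell at day 7 in wild type, where 47.0% of all genes were called in either direction, and 2 rose and 4 fell in knockout, where 46.9% were. Soat1, which esterifies cholesterol for storage, rose by 1.53 in wild type (SE 0.11, edgeR adjusted p 4.37e-06) and 1.97 in knockout (SE 0.113, edgeR adjusted p 7.3e-07) at day 7. Nr1h3, which encodes LXR alpha, fell by 1.37 (SE 0.185, edgeR adjusted p 0.000199) and fell by 1.62 (SE 0.188, edgeR adjusted p 6.26e-05).

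The genes closest in pattern were sought by Pearson correlation of log2 CPM over the 12 libraries, among 11002 genes, as a description with no test, since the 12 points are 6 groups of 2 libraries. For the mean profile of Hmgcs1, Sqle, Idi1, Insig1 and Fdft1 they were Cyp51 (r = 0.985), Sc5d (0.98), Rrm2b (0.979), Arl4d (0.978) and Bmp7 (0.977). Cyp51 and Sc5d are sterol enzymes, and Rrm2b is a ribonucleotide reductase subunit. Cyp51 had group means of 59.6, 45.4, 24.4, 29.3, 67.8 and 82.1 TPM in wild type and knockout at day 0, then day 7, then day 21 by label. For Scd1 they were Slc4a4 (0.985), Nfkbiz (0.983) and Scd2 (0.978), and for Srebf1 they were Wnt9a (0.935), Wrn (0.93) and Scara5 (0.925). Among the 8 genes themselves, Sqle and Hmgcs1 were most alike (r = 0.973), and Srebf2 and Fdft1 least (0.535).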

How the data were processed

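RNA of sorted muscle stem cells was sequenced in 12 libraries, 2 per genotype and day, as single-end reads of 76 bases from SMART-Seq v4 cDNA. The authors deposited a table of estimated counts for 30154 genes, not normalised. The authors also deposited the same genes in TPM, summing to between 874221 and 883224 per library. Another table, of 21782 genes, holds regularised log2 values that the authors corrected for a batch named neither in the labels nor in the file headers. The submitters' processing notes name kallisto 0.46.1 and the builds mm10 and GRCm38.p6. All other upstream settings are not given in the sources used here.

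Estimated counts were rounded to whole numbers, filtered with filterByExpr (15890 genes left) and scaled by TMM (factors 0.9148 to 1.09). A robust quasi-likelihood model (edgeR 4.0.16, R 4.3.3) with 1 mean per group was fitted to all 12 libraries, and p-values were adjusted by Benjamini-Hochberg over all genes tested in each of 8 comparisons. A gene is called, or said to rise or fall, at an adjusted p under 0.05. The standard error is the fold change divided by the root of F. Levels are TPM as deposited, with the SD of 2 libraries. The procedure was tested on simulated data. Alternatives used DESeq2 1.42.0, limma 3.58.1, other scalings, filters and pseudocounts (1 and 0.1), a replicate block and fits with libraries left out. Replicates of a group differed by 9.71 to 125 times the counting noise (chi-square per degree of freedom), so none was the same library deposited again.

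The 8 genes were named in every comparison, and at most 4 genes per pathway list by smallest p-value. Genes that overlap or closely resemble a member (BLAST 2.17.0, at least 90% identity over 300 bases of its longest transcript) were added after the data were seen. Members and lists were chosen with earlier results of these data known, so no p-value is given for a list. Of the lists' genes, 2 are not reported here, and list counts leave them out.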

Additional observations from a re-analysis of the deposited data

Results flagged for a closer look

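Among the 8 genes and the pathway lists, the change from day 0 to day 7 differed between genotypes (a called interaction in edgeR's quasi-likelihood test) for 12 of the 53 genes tested there (22.6%), where 13.5% of all genes tested were called. Among the 8 genes these were Fdft1 at 1.42 and Sqle at 0.80. Other sterol synthesis genes with a called interaction were Fdps at 1.08, Msmo1 at 0.91, Sc5d at 0.80, Cyp51 at 0.75 and Ebp at 0.68. Among uptake and transport genes, Stard4 was at 1.31 and Npc2 at 0.59. In the other lists Fads2 was at 0.58, Mbtps1 at -0.57 and Gpam at -4.05. All 12 values use the same 2 wild-type and 2 knockout libraries of day 0, in which the keratinocyte and red blood cell markers also differed.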

How the results depend on the processing

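Over 22 alternatives per result, among results of the 8 genes called in at least 1 fit, 784 values kept their direction and their side of the threshold, 18 lost a call, 12 gained one and 0 changed direction. Of the 8 genes, 2 were called between genotypes at day 0, against 1 in the limma fit of log2(TPM + 1) with no filter and 1 to 3 with 1 library left out. In the day 7 interaction 2 were called, against 1 in the limma fits of log2(TPM + 1), with and without the filter, and of log2(TPM + 0.1), and 1 to 3 with 1 library left out. The fits with 1 called at day 0 lacked knockout replicate 1, knockout replicate 2 or wild-type replicate 2 of day 0, and for the interaction wild-type replicate 2 of day 7 as well. At day 21, by label, 0 were called, against 1 by DESeq2, 1 on batch-corrected log2 values and 0 to 1 with 1 library left out (1 without knockout replicate 1 of day 21). Where leaving out a library leaves 1 in its group, that library is assumed to vary like the other groups. Npc1, at -0.52 from day 0 to day 7 in knockout, was at 0.002 in both fits of log2(TPM + 1). The cause of these changes was not tested.

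Over all genes, 280 were called between genotypes at day 7 (15 to 619 with 1 library left out, 787 by DESeq2, 865 on batch-corrected values, 1169 without the day 21 libraries, 112 to 124 on log2 TPM). At day 21, by label, 2 were called (0 to 865 with 1 library left out, 471 by DESeq2, 237 on batch-corrected values, 57 with no filter, 23 with at least 10 counts in every library, 9 on log2(TPM + 1) with no filter, 0 on log2(TPM + 0.1), 1200 without the 2 libraries that Sesn2 contradicts). The interaction gave 2141 (582 to 2852 with 1 library left out, 3887 without the day 21 libraries, 1238 to 1351 on log2 TPM) and the genotypes at day 0 gave 4356 (1667 to 5166 with 1 library left out). Among calls from day 0 to day 7 in wild type 54.9% were higher, and 69.7% on log2(TPM + 1).

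Over genes, the deviations of replicate 1 from the group mean correlated between groups at -0.1435 to 0.06997. With 2 libraries per group this cannot tell whether same-numbered libraries share a batch, an animal or a preparation. With a replicate block the members called were 2, 0 and 0 between genotypes at days 0, 7 and 21, 7 and 6 at day 7 against day 0 in wild type and knockout, 2 in the interaction, and 5 and 8 at day 21 against days 0 and 7, the same counts as without it. Over all genes the block gave 4080, 204 and 1 between genotypes at the 3 days, 7204 and 7234 at day 7 against day 0 in wild type and knockout, 1795 in the interaction, and 6990 and 8816 at day 21 against days 0 and 7.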
